A study of Mus musculus with 9 samples.

Results

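Predicted RefSeq noncoding transcripts are gene models that a genome annotation pipeline built from transcript evidence, given accessions that begin with XR_ and mostly provisional Gm symbols. On the array used here, 12131 of 97836 probes were designed to such models, and they are the transcripts described below. They were chosen by the XR_ accession in the probe name among 12146 such probes, after 15 probes had been taken out by the symbol patterns of small nucleolar RNA hosts, microRNA hosts, opposite-strand transcripts, pseudogenes and a few imprinted noncoding RNAs. A probe was taken as detected, or above background, on an array where at least 0.5 of its spots carried the scanner software's flag for a signal well above background. This held on at least 3 of 9 arrays for 5712 of the 12131 probes (47.1%), and all 5712 were tested. The accession gave a gene symbol for 3801 probes (31.3%), which stood for 3468 genes, and 8330 probes are known here only by their accession.

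The livers came from male C57BL/6J mice aged 20 weeks. Control mice ate chow for 17 weeks, and no gavage is recorded for them. The high fat diet group ate a diet with 45% of its calories from fat for 17 weeks and received saline by gavage in the last 5 weeks, and mice of the metformin group were fed that diet and gavaged with metformin, an oral drug for type 2 diabetes, at 3 mg/kg per day over the same 5 weeks. Each group held 3 arrays, each array held RNA of 1 liver pool from 4 mice, and the comparisons ask what the diet, with its saline gavage, changed and what the drug changed on top of it. A pool averages its mice, so the spread between pools is not the spread between mice.

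Long noncoding RNAs are transcribed like mRNAs, are often spliced and polyadenylated, and carry no long open reading frame. Some act at the locus they are made from, for example on a coding gene that they overlap or share a start region with, some act elsewhere, and for most predicted models no function is known. In liver, long noncoding RNAs are known to include regulators of lipid and glucose metabolism, but none of the transcripts named below is known here to be one, so each is described by its position beside coding genes.

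The start regions of the transcripts that the comparisons below turn on are shown first, because CpG-rich start regions were less frequent among predicted models than among coding genes. Each sequence runs 5′ to 3′ from 250 bases before to 50 bases after a start annotated by RefSeq on GRCm38.p6, is credited to RefSeq, and has every CG dinucleotide in capitals. The first 5 belong to genes called in a comparison with control (Gm32128, Gm39094, Gm32627, Gm14198 and Gm35393).
Gm32128, chr1:191420325-191420624, plus strand: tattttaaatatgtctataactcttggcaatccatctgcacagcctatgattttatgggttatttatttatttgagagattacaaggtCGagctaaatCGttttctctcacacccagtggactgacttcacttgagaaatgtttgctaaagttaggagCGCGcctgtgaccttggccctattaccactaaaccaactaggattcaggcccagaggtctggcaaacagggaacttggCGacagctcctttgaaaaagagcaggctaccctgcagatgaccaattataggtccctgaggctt
Gm39094, chr7:129657847-129658146, plus strand: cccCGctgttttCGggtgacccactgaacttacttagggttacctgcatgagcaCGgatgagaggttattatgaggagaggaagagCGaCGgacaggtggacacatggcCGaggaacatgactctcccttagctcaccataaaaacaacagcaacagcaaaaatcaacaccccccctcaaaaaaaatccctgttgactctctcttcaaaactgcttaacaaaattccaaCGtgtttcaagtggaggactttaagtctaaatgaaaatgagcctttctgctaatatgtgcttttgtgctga
Gm32627, chr2:93143944-93144243, plus strand: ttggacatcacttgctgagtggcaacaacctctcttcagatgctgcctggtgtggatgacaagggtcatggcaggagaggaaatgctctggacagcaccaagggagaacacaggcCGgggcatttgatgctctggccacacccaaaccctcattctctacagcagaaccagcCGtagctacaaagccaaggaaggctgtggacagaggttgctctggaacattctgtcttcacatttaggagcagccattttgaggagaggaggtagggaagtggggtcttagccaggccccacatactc
Gm14198, chr2:154632305-154632604, minus strand: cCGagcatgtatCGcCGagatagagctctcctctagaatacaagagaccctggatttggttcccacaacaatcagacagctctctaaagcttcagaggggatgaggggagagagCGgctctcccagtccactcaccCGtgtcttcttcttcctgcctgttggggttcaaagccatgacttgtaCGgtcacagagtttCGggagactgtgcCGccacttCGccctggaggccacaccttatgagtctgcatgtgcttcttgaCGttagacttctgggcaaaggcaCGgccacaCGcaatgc
Gm35393, chr1:63436362-63436661, minus strand: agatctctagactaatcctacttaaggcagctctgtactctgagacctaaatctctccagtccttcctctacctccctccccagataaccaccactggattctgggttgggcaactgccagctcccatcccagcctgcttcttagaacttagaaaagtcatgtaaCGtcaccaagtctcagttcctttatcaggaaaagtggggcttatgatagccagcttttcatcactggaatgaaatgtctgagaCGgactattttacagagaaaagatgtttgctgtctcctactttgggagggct
These 5 windows held 5, 7, 2, 12 and 2 CG dinucleotides, in the order printed.

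A pair of models that start beside a coding gene on the opposite strand is shown for contrast. Gm30679 starts within 1000 bp of Smox, which encodes spermine oxidase, and Gm32342 starts within 1000 bp of Cyp26a1, which encodes an enzyme that degrades retinoic acid.
Gm30679, chr2:131492227-131492526, minus strand: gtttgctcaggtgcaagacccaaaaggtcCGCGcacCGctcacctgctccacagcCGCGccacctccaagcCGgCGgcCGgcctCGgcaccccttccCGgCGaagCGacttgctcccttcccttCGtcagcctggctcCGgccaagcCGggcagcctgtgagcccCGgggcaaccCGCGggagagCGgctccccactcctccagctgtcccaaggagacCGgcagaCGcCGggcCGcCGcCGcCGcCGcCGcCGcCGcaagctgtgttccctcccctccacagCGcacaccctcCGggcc
Gm32342, chr19:37697497-37697796, minus strand: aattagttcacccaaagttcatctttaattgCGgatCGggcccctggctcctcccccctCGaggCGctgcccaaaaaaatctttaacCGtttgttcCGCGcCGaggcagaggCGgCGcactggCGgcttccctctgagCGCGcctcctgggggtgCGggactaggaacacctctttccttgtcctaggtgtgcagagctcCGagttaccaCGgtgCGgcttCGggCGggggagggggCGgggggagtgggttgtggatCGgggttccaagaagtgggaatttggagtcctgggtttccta
The Gm30679 window held 32 CG dinucleotides and the Gm32342 window 21, and both met a common definition of a CpG-rich region, a GC content over 50% and an observed to expected CpG ratio over 0.6.

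CpG-rich start regions were rare among the predicted transcripts. Of 3306 start windows of 2536 named genes, 7.35% were CpG-rich, against 44.9% of 21263 windows of coding genes. The median window of a predicted transcript held 4 CG dinucleotides at 47.3% GC, and the median coding window 13 at 56.3% GC. This share was nearly the same for genes above background on all 9 arrays (7.97%) as for genes above background on 0 arrays (7.0%). Of 5 short motifs searched on both strands, none of which contains another, GGGCGG stood in 12.4% of the predicted windows against 46.2% of coding windows and 35.7% of all windows. AGGTCA, a core motif of several nuclear receptors, stood in 20.3% against 14.7% and 16.3%. TATAAA stood in 17.3% against 12.6% and 13.6%, CCAAT in 36.2% against 38.2% and 37.4%, and TGTTTAC, a forkhead-type motif, in 4.84% against 3.00% and 3.65%. Among the windows printed above, Gm32128 held AGGTCA on its minus strand and CCAAT on its plus strand, Gm32342 held GGGCGG, and none of the 5 motifs was found in the other 5 windows. A match describes letters and is not evidence of a bound site.

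**Figure D1:**
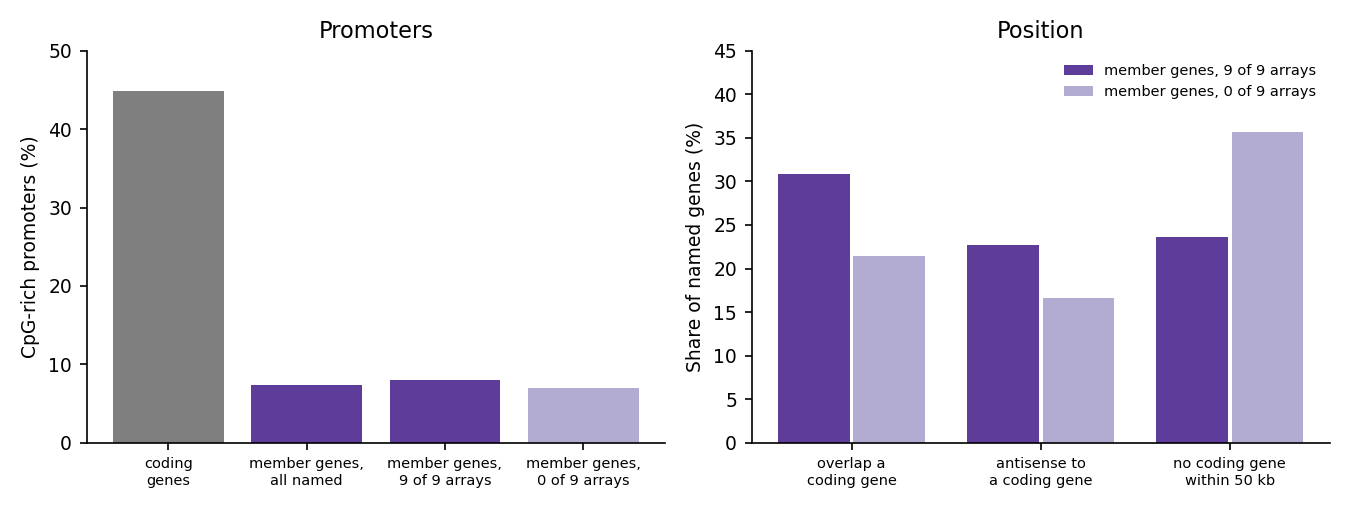
Left, share of start windows that were CpG-rich (%), for coding genes and for named predicted genes split by the number of arrays above background. Right, share of named predicted genes (%) in 3 kinds of position, for genes above background on all 9 arrays and on 0 arrays. Detection did not separate the CpG shares (7.97% and 7.0%), while overlap with a coding gene was 30.9% against 21.5%.

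Overlap with a coding gene and distance to one went with detection more than the CpG-rich share did. Among the motifs, AGGTCA stood in 22.8% of windows of genes above background on all 9 arrays and in 18.0% for 0 arrays. The other motifs differed less. Of the 3468 named genes, 26.2% overlapped a coding gene and 30.6% had no coding gene within 50 kb. Among genes above background on all 9 arrays, 30.9% overlapped a coding gene and 23.6% had none within 50 kb, and among genes above background on 0 arrays these shares were 21.5% and 35.7%. Of genes with a strand on file, 22.8% of the first set and 16.6% of the second lay antisense to a coding gene, and 8.97% and 7.68% started within 1000 bp of a coding gene's start on the opposite strand. Which strand the labelling kit marks is not given in the sources, so for a model that overlaps a coding gene the signal of both cannot be told apart where they share sequence. These shares are descriptions of the annotation with no test.

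Detection was less frequent for the predicted models than for most other probes. Above background on at least 3 of 9 arrays were 47.1% of the predicted models, 53.3% of 873 curated RefSeq noncoding probes, 58.4% of NONCODE probes, 60.4% of RIKEN clone probes and 74.3% of Agilent catalogue probes. Ensembl probes were close to the predicted models, at 48.9%. Probes for ultraconserved regions were lower, at 38.3%, as were 27 probes of no named class, at 29.6%. Within the predicted models, 3844 probes (31.7%) were above background on all 9 arrays and 5198 (42.8%) on none, while 1221 were above background on 1 or 2 arrays. At the limit, the 312 probes above background on exactly 3 arrays had a median level of -3.63 and the 404 on exactly 2 arrays a median of -3.87. A level here is the log2 signal less the 75th percentile of its array, so that 0 is a signal at that percentile.

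The share of the 12131 probes above background was 43.0%, 42.4% and 48.9% on control replicates 1, 2 and 3. It was 45.4%, 40.3% and 39.8% on the high fat diet arrays and 47.3%, 36.4% and 41.9% on the metformin arrays. The groups overlapped. The means were 44.8% ± 3.61, 41.8% ± 3.06 and 41.9% ± 5.46 (SD, n = 3 each). High fat diet minus control was -2.93 percentage points (exact permutation test, two-sided, p = 0.4), metformin minus control -2.88 points (exact p = 0.4) and metformin minus high fat diet 0.055 points (exact p = 1), where 3 against 3 cannot give a p below 0.1. No difference in how many predicted transcripts were detected exceeded the spread between pools.

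**Figure D2:**
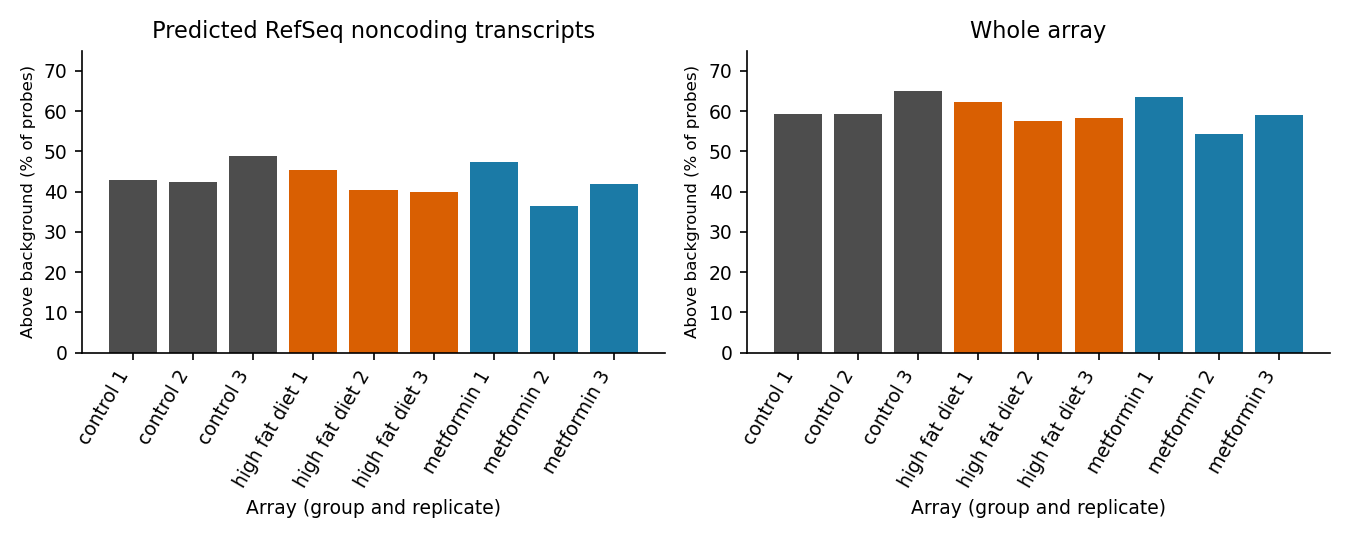
Share of probes above background (%) on each of the 9 arrays, for the 12131 predicted RefSeq noncoding probes (left) and for all 97836 probes (right), coloured by group. Predicted transcripts range from 36.4% to 48.9%, with overlapping groups, and follow the whole array.

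Arrays differed in ways the groups do not explain. Between 53.0% and 63.5% of the 175906 spots of an array were above background, and no spot was saturated. Control replicate 1 stood apart: 45 of the tested predicted transcripts were more than 2 log2 units above the median of the other arrays there, against 1 to 7 on the other arrays, and it was the highest array for 31.8% of them, where equal shares would give 11.1%. Its correlation with the other controls was 0.963 to 0.964, against 0.980 between those 2. The controls and high fat diet replicate 1 were on slide 1, high fat diet replicates 2 and 3 with metformin replicates 1 and 2 on slide 2, and metformin replicate 3 on slide 3, so slide and group overlap in part. The labelled tissue could not be checked, since 0 of the 18 hepatocyte markers looked for has a probe named here, and of the markers of other cell types Rgs5 alone has one. In bulk liver RNA, fewer cells of a type and less RNA per cell cannot be told apart.

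Most predicted transcripts varied little. The range over the 9 arrays had a median of 0.897 log2 units, against 0.805 over all 62036 tested probes, and stayed under 1 for 3311 of the 5712 (58.0%). It exceeded 4 for 19. Gm35393, a model beside Adam23, had the widest range, 6.93. Among the other 4 of the 5 widest, which are known only by accession and were looked at after their values were seen, 2 were highest on control replicate 1. For 72 genes at least 2 probes were tested. Their brightest 2 probes correlated over the arrays with a median r of 0.449, which was above 0.9 for 4 genes and below 0 for 13. All tested probes of a gene had the same sign for 50 of 72 genes in high fat diet minus control, 42 in metformin minus high fat diet and 53 in metformin minus control. For 9 genes a RIKEN clone probe outside the predicted models was tested too. It correlated with the predicted model's probe with a median r of 0.173 and had the same sign for 3, 5 and 4 of the 9 in these comparisons. Gm11802, with 4 tested probes, was lower with the diet on all of them (-0.51 to -0.21 on the log2 scale) and higher with metformin than without it (0.49 to 0.65), with 0 probes called. Gm34667, also with 4, had both signs for the diet (-0.31 to 0.17).

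The high fat diet changed few predicted transcripts by the test. With limma on all 62036 tested probes and p-values adjusted by Benjamini-Hochberg over all of them, a probe was called when its adjusted p was under 0.05. In high fat diet minus control 4 of 5712 predicted transcripts were called, 2 higher and 2 lower, or 0.0700%, where the background over all probes was 0.0451% (0.0129% higher and 0.0322% lower). The groups did not overlap for 429 higher and 644 lower (7.51% and 11.3%, background 7.27% and 8.13%, in all 15.4%). Without adjustment, 308 were higher and 616 lower at a p under 0.05, with a background of 4.88% and 7.20% (12.1% in all), so that 5.39% and 10.8% of predicted transcripts passed. Group means differed at least 2-fold upward for 43 and downward for 158 (3.52% in all, against 2.63% of all tested probes, 339 higher and 1292 lower), a description without a test. The median difference was -0.06 over predicted transcripts and -0.01 over all probes, where array medians within a group had an SD of 0.08. Over predicted transcripts it was 0.01 when control replicate 1 was left out, and -0.09 when either other control was.

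**Figure D3:**
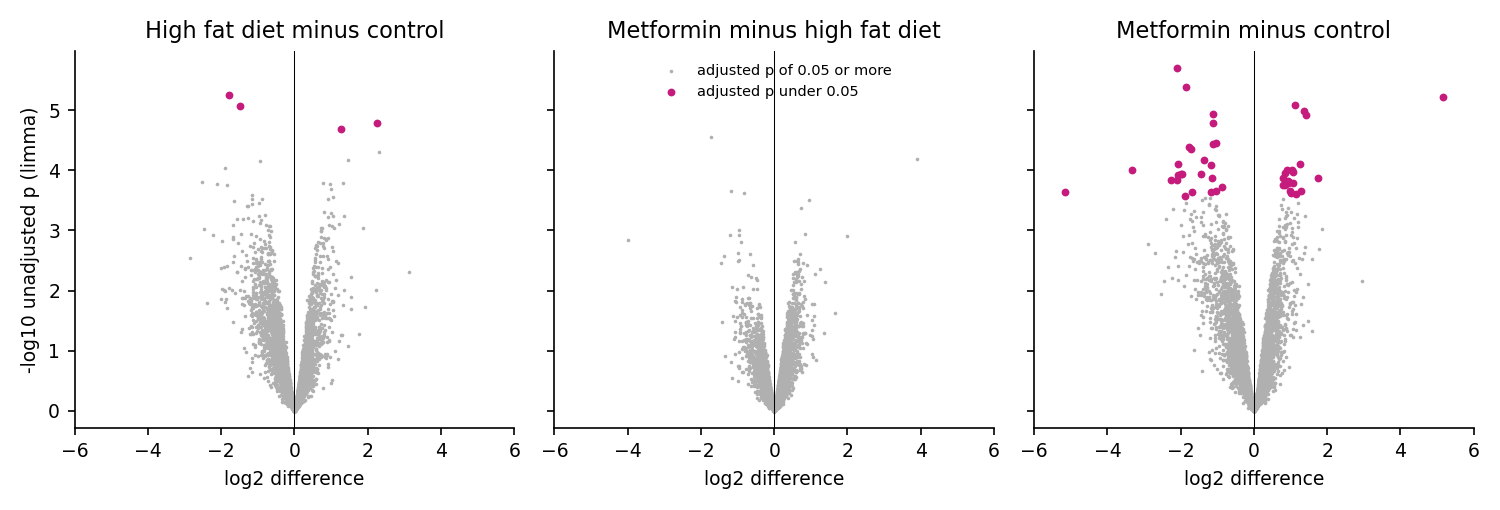
Difference between groups (log2, x axis) against -log10 of the unadjusted limma p (y axis) for the 5712 tested predicted transcripts in the 3 comparisons. Magenta points had an adjusted p under 0.05: 4 with the diet, 0 for metformin against high fat diet, and 46 for metformin against control.

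Gm32128, which lies near Ppp2r5a, a gene for a regulatory subunit of protein phosphatase 2A, was higher with the diet. Its levels were -3.97, -3.60 and -3.76 in controls, -2.48, -2.61 and -2.42 in high fat diet pools and -2.54, -2.54 and -2.12 in metformin pools. All 6 pools on the diet exceeded every control, and no control array was above background. The rise was at least 2.40-fold (limma adjusted p = 0.0472). Gm32128 passed the filter on dim probes only through the pools on the diet, where it is high, so its call is not support for a rise. With no such filter its adjusted p by limma was 0.0944. Such a bound sets the bright group's mean against the higher of the probe's own value and the lowest signal above background on each array of the dim group. It allows for the background limit only, and not for the spread between pools. Where the probe's own values are the higher, the bound is the fold difference of the means itself. For Gm32128 that difference was 2.41-fold.

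Gm38830, near Chmp3, which encodes a subunit of the membrane-cutting ESCRT-III complex, was lower. Its levels were -2.83, -2.91 and -2.91 in controls, -4.59, -5.05 and -4.36 with high fat diet and -4.42, -4.88 and -4.88 with metformin. Controls were all above background and no pool on the diet was, a difference of at least 2.54-fold (limma adjusted p = 0.0290). It passed the filter on dim probes only through the controls, the group where it is high, so its call is not support for a fall. With no such filter its adjusted p by limma was 0.0594. XR_869178, known only by its accession, had levels of -0.62, -1.37 and -1.63 in controls, 1.44, 0.56 and 1.16 with high fat diet and 0.71, 0.36 and 0.55 with metformin, a rise of 2.26 on the log2 scale (SE of the difference 0.29, limma adjusted p = 0.0441). XR_882001 had -2.78, -2.98 and -2.92 in controls and -4.36, -4.10 and -4.66 with high fat diet, a fall of at least 2.48-fold (limma adjusted p = 0.0348). Outside the controls XR_882001 was above background on 1 metformin array only. It too needed the controls to pass the filter, so its call is not support for a fall.

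The 4 calls depended on single arrays. The count was 1 without control replicate 1, 0 without control replicate 2, 1 without control replicate 3, 60 without high fat diet replicate 1 (58 of them lower), 0 without high fat diet replicate 2 or 3, 4 without metformin replicate 1, 2 without metformin replicate 2 and 1 without metformin replicate 3. The adjusted p reached 0.15 for Gm32128 and 0.108 for Gm38830 over these fits, and 0.495 and 0.505 with slide as a block. Within slide 1, high fat diet replicate 1 differed from the mean of the controls by 1.30 for Gm32128 and by -1.71 for Gm38830.

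The next genes by p-value missed the threshold. Gm36317, which overlaps Vps13d, a gene for a lipid transfer protein, had levels of -1.54, -1.24 and -1.61 in controls and -0.03, -0.21 and 0.22 with high fat diet, a difference of 1.46 (SE 0.22, limma adjusted p = 0.0728). Gm34472, near Ywhaz, which encodes a 14-3-3 protein, differed by 0.77 (SE 0.13, limma adjusted p = 0.0892). Differences of the other higher ones were 1.00 for Gm33702, 0.71 for Gm36005, 0.81 for Gm36013, 0.91 for 8030431J09Rik, 0.86 for Gm30926 and 1.36 for Gm41464. Their adjusted p lay between 0.127 (Gm33702) and 0.166 (Gm30926). Gm30926 and Gm41464 were above background on 1 control array each, and Gm34472 on 2. Gm30926, Gm41464 and Gm34472 therefore needed pools on the diet, where they are high, to pass the filter. Their differences are not support for a rise. 8030431J09Rik overlaps Abtb2, Gm30926 overlaps Lrmda on the other strand, and Gm41464 lies near Cpox, which encodes a heme synthesis enzyme.

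Gm32342, whose CpG-rich start is printed above, had a large difference that was not called. Its levels were 2.18, 2.21 and 2.81 in controls, -0.53, -0.0020 and 0.14 with high fat diet and 1.20, 0.17 and -0.78 with metformin. Every control lay above every pool on the diet. The difference was -2.53 (SE 0.43, limma adjusted p = 0.0892), and -2.93 within slide 1. Besides starting beside Cyp26a1, the model runs antisense to Cyp26c1 and Exoc6.

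Gm30679, the other model with a CpG-rich start, had levels of -4.28, -3.69 and -3.59 in controls, -2.97, -2.76 and -2.77 with high fat diet and -2.96, -3.44 and -3.47 with metformin. No control was above background and all high fat diet pools were, at least 1.87-fold higher (limma adjusted p = 0.147). Gm30679 passed the filter only through the pools on the diet, where it is high, so this is not support for a rise. With no filter its adjusted p by limma was 0.208. It overlaps Smox on the opposite strand.

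Lower with the diet, without a call, were also Gm39806 (-0.94, limma adjusted p = 0.0728), Gm32772 (adjusted p = 0.0792), Gm15704 (-0.80, adjusted p = 0.130), Gm36880 (-1.27), Gm40467 (-1.42) and Gm39741 (-1.14). Gm32772, 71.8 kb from its nearest coding gene Psg29, had levels of -2.01, -2.88 and -3.16 in controls and -4.85, -4.58 and -4.32 with high fat diet. The 3 control arrays were above background and the 3 high fat diet arrays were not, which gives a difference of at least 2.92-fold. Gm36880 was above background on 2 control arrays, 0 high fat diet arrays and 1 metformin array, so its difference is only a bound, at least 1.54-fold. Gm39806 and Gm32772 passed the filter only through the controls, and Gm36880 needed the controls to pass. For these genes the differences are values and not support for a fall.

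More predicted transcripts were called when metformin pools were set against controls. That comparison joins diet, gavage and drug. In it 46 of 5712 were called, 21 higher and 25 lower, or 0.805%, with a background of 0.546% over all probes (0.237% higher and 0.309% lower). Of these, 13 had a symbol, 5 higher and 8 lower. Of the 46, 7 were above background on the 3 control arrays alone, as was 1 of the 4 calls with the diet. These passed the filter only through the group where they are high. Most of the 25 lower calls, Gm40106 and Gm40300 among them, were above background on fewer than 3 arrays outside the controls. They needed the controls, where they are high, to pass, so they are not support for a fall. XR_882001, called with the diet, needed them too. Some higher calls, among them Gm32128, Gm34472 and XR_399773, were above background on fewer than 3 control arrays. They needed pools on the diet to pass, so they are not support for a rise. Without adjustment 1271 passed a p under 0.05 (22.3%, background 19.1%), 554 of them higher and 717 lower (9.70% and 12.6%, background 8.65% and 10.4%), and the groups did not overlap for 1606 (28.1%, background 24.9%), 716 higher and 890 lower against 12.5% of all probes in either direction. At least 2-fold differences in the means, without a test, numbered 64 higher and 239 lower (5.31% in all, against 3.49% of all tested probes, 449 higher and 1714 lower). The median difference was -0.01 over predicted transcripts, the same as over all probes to 2 decimals, and 0.06, -0.05 or -0.04 when control replicate 1, 2 or 3 was left out.

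Among the named higher genes, Gm39094 near Wdr11, a gene for a trafficking protein, had levels of 0.31, 0.49 and 0.71 in controls, 1.02, 0.70 and 1.21 with high fat diet and 1.88, 1.83 and 2.10 with metformin. The metformin pools lay above all others, while controls and high fat diet pools met at their edges. It rose by 1.43 (SE 0.18, limma adjusted p = 0.0193). Gm32627, near the p53-inducible gene Trp53i11, had levels of -0.42, -0.26 and -0.45, then 0.04, 0.22 and 0.28, then 0.81, 0.77 and 0.68 in the same order of groups. These 3 groups did not overlap, and it rose by 1.13 (SE 0.13, limma adjusted p = 0.0186). Its start window has only 2 CG dinucleotides.

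Gm32128 was at least 2.59-fold higher than in controls (limma adjusted p = 0.0192). It passed the filter only through the pools on the diet, where it is high, so its call is not support for a rise here either. With no filter its adjusted p by limma was 0.0387. Gm34472 rose by 0.79 (SE 0.13, limma adjusted p = 0.0404), from -2.93, -2.88 and -2.71 in controls to -2.01, -2.02 and -2.11, with high fat diet pools at -2.12, -2.13 and -1.95. Gm36005, near Gabrp, which encodes a GABA receptor subunit, rose by 0.92 (SE 0.15, limma adjusted p = 0.0422), from 1.17, 1.37 and 1.49 to 2.26, 2.12 and 2.42, with high fat diet pools at 2.02, 2.24 and 1.91. For these 3 genes the high fat diet and metformin pools overlapped, apart from controls.

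**Figure D4:**
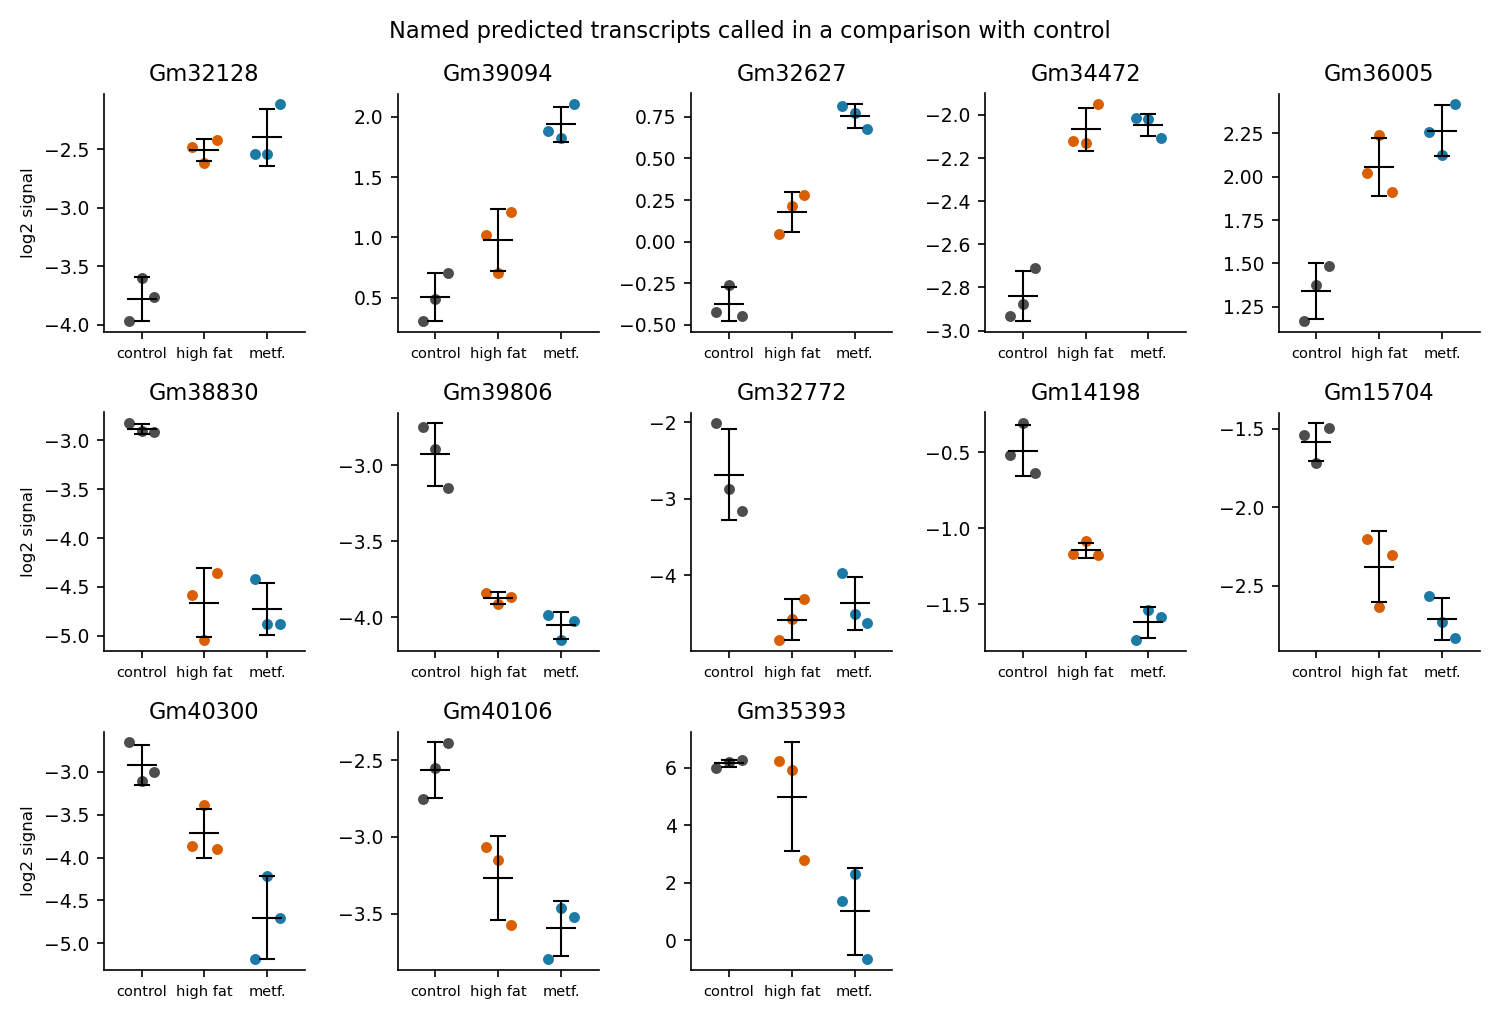
Log2 level relative to the 75th percentile of the array (y axis, own scale per gene) for the 13 named predicted transcripts called in metformin minus control, of which Gm32128 and Gm38830 were also called in high fat diet minus control. Points are pools (n = 3 a group), bars are mean ± SD, and "metf." is metformin. The upper row was higher with metformin and the others lower, and in Gm35393 high fat diet replicate 3 lies at 2.81, below the other high fat diet pools.

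Among the named lower genes, Gm35393 differed most. It lies near Adam23, which encodes a membrane protein of the disintegrin family, and had levels of 6.00, 6.21 and 6.26 in controls, 6.24, 5.93 and 2.81 with high fat diet and 1.38, 2.30 and -0.67 with metformin. The difference was -5.15 (SE 0.91, limma adjusted p = 0.0472). High fat diet replicate 3 was the 1 pool outside the metformin group with a level under 5.9. With slide as a block the difference was -2.45.

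XR_399773, known only by its accession and picked after its values were seen, had the reverse order of groups. Its levels were -3.24, -3.75 and -3.62 in controls, -3.33, -2.43 and -1.02 with high fat diet and 1.75, 0.59 and 2.57 with metformin. It rose by 5.17 (SE 0.59, limma adjusted p = 0.0155). High fat diet replicate 3, the lowest high fat diet pool for Gm35393, was the highest for this probe.

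Gm14198, antisense to the zinc finger gene Zfp341, fell by 1.13 on the log2 scale (SE 0.14, limma adjusted p = 0.0193), from -0.52, -0.31 and -0.64 in controls through -1.17, -1.09 and -1.18 with high fat diet to -1.74, -1.54 and -1.59 with metformin. These 3 groups did not overlap. A dimmer second probe of Gm14198 gave -0.41 and was not called. From high fat diet to metformin that probe rose by 0.31, so the stepwise fall was seen on the brighter probe only. Gm15704, which overlaps Rassf8, fell by 1.13 (SE 0.16, limma adjusted p = 0.0302), from -1.54, -1.72 and -1.49 to -2.57, -2.73 and -2.84, with high fat diet pools at -2.20, -2.63 and -2.31.

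The other 5 named lower genes were above background on no metformin array. Gm38830 was at least 2.42-fold lower (limma adjusted p = 0.0152). Gm39806 had levels of -2.74, -2.89 and -3.15 in controls, -3.84, -3.91 and -3.87 with high fat diet and -3.98, -4.15 and -4.02 with metformin, at least 2.02-fold lower than in controls (limma adjusted p = 0.0209). Gm40300 had -2.66, -3.10 and -3.01, then -3.87, -3.39 and -3.90, then -5.18, -4.22 and -4.71, at least 2.42-fold lower (limma adjusted p = 0.0306), with 2 of its 3 control arrays above background. Its nearest coding gene, the adhesion receptor gene Adgra3, lies 63.7 kb away. Gm40106, near Tent5c, which encodes a noncanonical poly(A) polymerase, had -2.75, -2.56 and -2.39, then -3.07, -3.15 and -3.58, then -3.80, -3.46 and -3.52, at least 2.04-fold lower (limma adjusted p = 0.0472). Gm32772 was at least 2.50-fold lower (limma adjusted p = 0.0472). Gm38830, Gm39806 and Gm32772 passed the filter only through the controls, where they are high, so their calls are not support for a fall. With no filter their adjusted p by limma was 0.0298, 0.0478 and 0.0781. Outside the controls Gm40106 was above background on 1 high fat diet array and Gm40300 on 2. Both therefore needed the controls to pass, and their calls are not support for a fall either. With no filter the adjusted p by limma was 0.0848 for Gm40106 and 0.0523 for Gm40300. Of all 13 named genes, 2 overlapped a coding gene, 3 had none within 50 kb, and 0 of the 9 with a start on file started beside a coding gene on the opposite strand.

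Just past the threshold lay Gm41223, which overlaps Diaph3 (-1.32, SE 0.24, limma adjusted p = 0.0507), Gm39358, antisense to Iqch (-1.05, adjusted p = 0.0530), Gm31534 (0.77, adjusted p = 0.0547) and Gm36317 (1.03, adjusted p = 0.0651). A dimmer second probe of Gm31534 gave 0.27.

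The number of calls depended on single arrays and on the slide. The count was 157 without control replicate 1, 0 without control replicate 2, 11 without control replicate 3, 107, 22 and 91 when high fat diet replicate 1, 2 or 3 was left out, and 11, 8 and 0 when metformin replicate 1, 2 or 3 was. Gm38830 and Gm32128 were called in 7 of these 9 fits, Gm32627, Gm39094, Gm14198, Gm39806 and Gm40300 in 5, Gm15704 in 4, and Gm34472, Gm36005, Gm40106, Gm35393 and Gm32772 in 3. No slide held both control and metformin arrays. With slide as a fixed block the count was 0 (304 at an unadjusted p under 0.05), and with slide as a random block it was 952. With the fixed block the adjusted p was at least 0.944 for the named genes, while differences of several were near those without it: -1.18 against -1.13 for Gm14198, 1.41 against 1.43 for Gm39094, 1.27 against 1.38 for Gm32128, -1.65 against -1.84 for Gm38830 and -1.09 against -1.12 for Gm39806. Others shrank: -0.80 against -1.13 for Gm15704, -0.765 against -1.03 for Gm40106 and -2.45 against -5.15 for Gm35393. These blocked differences rest on high fat diet replicate 1, the only array of its group on the slide of the controls. The split of 21 higher and 25 lower was 33 and 22 after quantile normalization and 31 and 24 with normexp background correction.

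Metformin against high fat diet, the comparison of the drug on the same diet and gavage, gave no call among predicted transcripts. With limma 0 of 5712 passed, with a background of 0.00645% over all probes (0.00484% higher and 0.00161% lower), and the count was also 0 in each of the 21 alternatives tried. At an unadjusted p under 0.05, 304 passed (5.32%, background 6.64%), 196 higher and 108 lower, against a background of 3.31% and 3.34%. The 2 groups did not overlap for 678 (11.9%, background 16.2%), 483 with metformin higher and 195 with it lower (8.46% and 3.41%, background 8.04% and 8.15%). The median difference was 0.04 over predicted transcripts and 0.01 over all probes, within the 0.08 SD of array medians, and 0.0044 without high fat diet replicate 3.

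Among genes with a symbol the smallest p-values belonged to Gm39094, higher by 0.96 (SE 0.18, limma adjusted p = 0.396; 0.90 within slide 2), and Gm39398, higher by 0.72 (SE 0.14, adjusted p = 0.396), with levels of -0.59, -0.71 and -0.67 with high fat diet and -0.14, 0.18 and 0.14 with metformin. Gm39443, which overlaps on the same strand Prkar1a, a gene for a regulatory subunit of protein kinase A, had -3.47, -3.48 and -4.64 with high fat diet and -1.62, -2.02 and -1.96 with metformin. No high fat diet array was above background, which gives at least a 3.61-fold difference (limma adjusted p = 0.483), but controls spanned -3.89 to -2.12. Gm32627 differed by 0.57 (adjusted p = 0.502), Gm33560 by 0.65, Gm32052 by 0.63, Gm36641 by 0.64, Gm41913 by 0.60 and Gm30258 by 0.53.

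XR_399773 had a smaller p-value than these and differed by 3.90 (SE 0.59, limma adjusted p = 0.273).

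Lower with metformin, without a call, were Gm35393 (-3.99, SE 0.91, limma adjusted p = 0.502; -2.53 within slide 2), Gm40300 (adjusted p = 0.542), Gm31718 near Tomm20, a mitochondrial import receptor gene (-1.45, adjusted p = 0.547), Gm14198 (-0.47, adjusted p = 0.595), Gm32800 (-0.72), Gm32747 (-0.75), Gm31224 and Gm39626 (-0.40). The dimmer second probe of Gm14198 went the other way here, by 0.31. Gm32800 and Gm32747 both have Ptpn1, which encodes a phosphatase that dampens insulin signalling, as nearest coding gene, yet lie more than 50 kb from it. Gm32800 had levels of -1.72, -1.20 and -1.87 in controls, -0.79, -0.76 and -1.01 with high fat diet and -1.46, -2.04 and -1.23 with metformin, so that high fat diet pools lay above both other groups.

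Some transcripts crossed the background limit between groups. In high fat diet minus control, 8 predicted transcripts were above background on all high fat diet arrays and no control (0.140%, background 0.0822%) and 47 the reverse (0.823%, background 0.442%). In metformin minus control the counts were 12 (0.210%, background 0.110%) and 85 (1.49%, background 0.829%), and in metformin minus high fat diet 9 and 9 (0.158% each, background 0.0854% and 0.0822%). Against controls, crossings downward outnumbered crossings upward in predicted transcripts and over all probes. Gm41949, which overlaps Ubxn4, crossed upward, with levels of -4.27, -3.67 and -3.84 in controls, -2.89, -2.93 and -2.89 with high fat diet and -2.71, -3.43 and -2.51 with metformin. This was at least 1.88-fold higher with high fat diet (limma adjusted p = 0.173) and at least 1.91-fold with metformin (adjusted p = 0.0778). Gm41949 passed the filter only through the pools on the diet, where it is high, so this is not support for a rise. Gm3141 crossed downward, with -0.67, -2.39 and -2.94 in controls, -4.47, -3.81 and -3.28 with high fat diet and -5.40, -3.36 and -5.35 with metformin, at least 4.12-fold lower with metformin (adjusted p = 0.0864), and its highest value was on control replicate 1. Without that array the metformin difference of Gm3141 moved from -2.70 to -2.04. Gm3141 and Gm26567 are among 20 predicted transcripts above background on the 3 control arrays alone, which passed the filter only through the group where they are high, so these differences support nothing. Gm26567 (at least 2.75-fold lower, adjusted p = 0.101) and Gm35875, antisense to Cntnap2 (at least 2.74-fold lower, adjusted p = 0.10), crossed downward with metformin too, and Gm42109 upward (at least 1.64-fold, adjusted p = 0.106).

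Predicted transcripts beside genes of liver metabolism were few, and 0 were called in any of the 21 lists and 3 comparisons. The lists named pathway genes and cell type markers, and a transcript counted when it overlapped one or lay within 50 kb. Beside cholesterol and bile acid genes 4 were tested: all 4 were lower with high fat diet than in controls (median -0.42, all probes -0.01) and all 4 higher with metformin than with high fat diet (median 0.43, all probes 0.01). Both differences use the high fat diet arrays. For Gm32099, among these 4, the diet difference was -0.07 on the brighter probe and 0.06 on the other. Of all tested probes, 48.2% were higher with high fat diet than in controls, and 51.3% higher with metformin than with high fat diet. Gm42324, near Nr0b2, a repressor gene of bile acid synthesis, had levels of -1.55, -2.13 and -2.07 in controls, -3.10, -2.44 and -2.55 with high fat diet and -2.44, -2.21 and -2.70 with metformin. Every control lay above every high fat diet pool, and the difference was -0.78 (SE 0.23, limma adjusted p = 0.228).

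Beside liver transcription factor genes 7 were tested, of which 6 were higher and 1 lower in high fat diet minus control (median 0.34). In metformin minus control, which shares the controls, 6 were higher and 1 lower (median 0.56). Gm38678 overlaps Onecut1, which encodes a hepatocyte transcription factor, and had 1.62, 2.22 and 1.65 in controls, 2.81, 2.91 and 2.65 with high fat diet and 2.23, 3.19 and 2.46 with metformin. The diet difference was 0.96 (SE 0.26, limma adjusted p = 0.203). Gm20016, near the pioneer factor gene Foxa1, was 0.87 higher with metformin than in controls (adjusted p = 0.0932). The 1 lower transcript was Gm31852, with 3.94, 4.03 and 3.90 in controls, 3.56, 3.56 and 2.13 with high fat diet and 2.38, 2.63 and 1.91 with metformin (-1.64, SE 0.36, adjusted p = 0.0665). It lies within 50 kb of Cebpb, but its start faces Ube2v1, a nearer gene, and high fat diet replicate 3 was again below the other high fat diet pools.

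**Figure D5:**
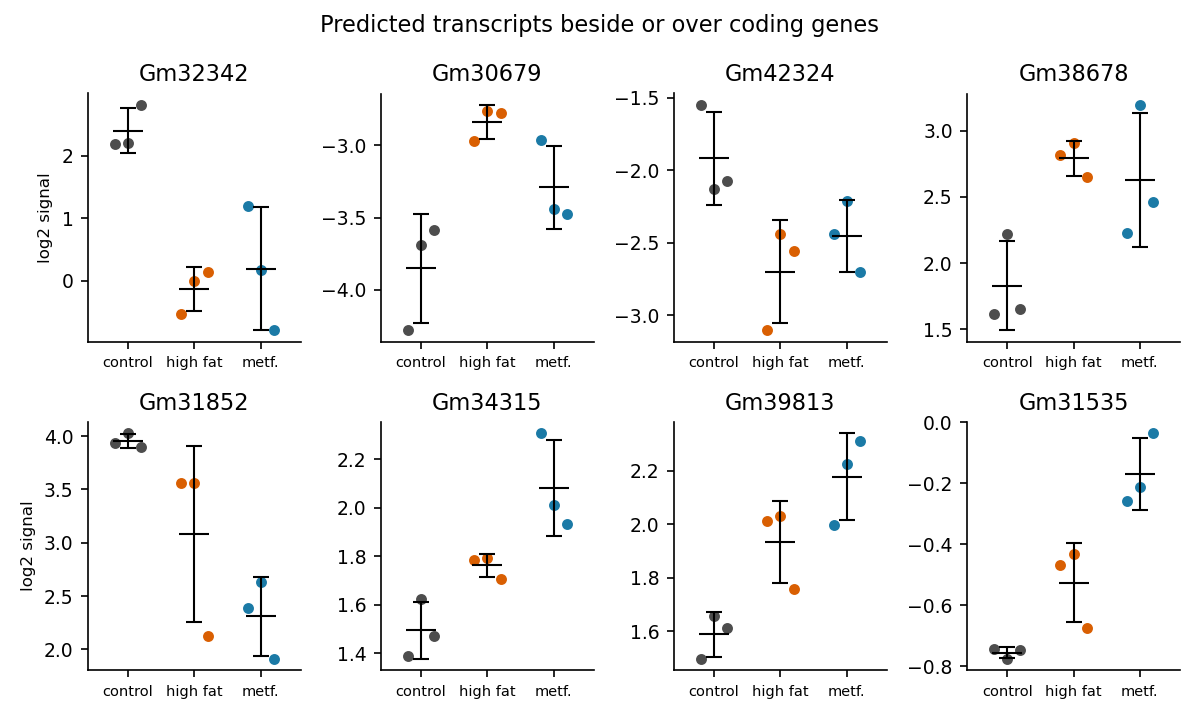
Log2 level relative to the 75th percentile of the array (y axis, own scale per gene) for 8 predicted transcripts beside or over coding genes. Points are pools (n = 3 a group), bars are mean ± SD, and "metf." is metformin. None was called, and Gm32342 shows all controls at 2.18 or more and all pools on the diet at 1.20 or less.

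Other lists held 0 to 6 tested transcripts each. Beside fatty acid oxidation genes, Gm34315, next to the racemase gene Amacr, was 0.59 higher with metformin than in controls (limma adjusted p = 0.0890), with levels of 1.39, 1.62 and 1.47 against 2.31, 2.01 and 1.93. Gm39813, near the glycerol phosphate dehydrogenase gene Gpd2, was also 0.59 higher (adjusted p = 0.0887), and so was Gm31535, near the sulfiredoxin gene Srxn1 (0.59, adjusted p = 0.0736). A dimmer second probe of Gm31535 gave 0.11. Gm33424, near the clock repressor gene Nfil3, was lower (-0.93, adjusted p = 0.122), as was Gm40075 beside the fibrinogen genes (-0.73, adjusted p = 0.118), and Gm31882, antisense to Saa3, had 0.36 (adjusted p = 0.211). Of 6 beside lipid synthesis genes, 2 were higher and 4 lower with the diet (median -0.05), among them Gm29917 near Fads2 (-0.87, adjusted p = 0.299). Gm36565, near Igfbp1, had -1.36 with the diet (adjusted p = 0.204). Beside clock genes 1 of 5 was higher and 4 lower with the diet (median -0.19), the higher one being Gm32675 near Bhlhe41 (0.43, adjusted p = 0.334). Beside hepatocyte markers 2 of 5 were higher and 3 lower with the diet (median -0.14), Gm32952 near Ass1 was 0.53 higher with metformin than with high fat diet (adjusted p = 0.784), and the remaining lists held 4 or fewer.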

How the data were processed

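Liver RNA labelled with Cy3 was measured on 9 single-colour Agilent arrays, 3 a group. Per the file headers, the authors used Agilent Feature Extraction 11.5.1.1 to read the spots (10.7 per the submitters' processing notes). The values taken from the deposited scanner files are intensities, linear and background-subtracted by that software. The deposited table of the series holds log2 values, which matched the scanner values centred on the 75th percentile within 0.01 for every probe compared after an offset of about 0.002. Its column medians lay between -2.39 and -2.16. Control spots and outlier spots were left out, spots of a probe averaged, and log2 signals centred on each array's 75th percentile. Models were fitted with limma 3.58.1 in R 4.3.3 (lmFit, eBayes) over all 62036 probes above background on at least 3 of 9 arrays, with a mean per group, and checked on simulated data. Summaries used pandas 2.3.3 and SciPy 1.17.1. The residual degrees of freedom were 6. Array number limits the precision.

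The headers name the build mm9, so the GRCm38.p6 table served for names and neighbours, and only the printed start windows carry its coordinates. For each comparison the named genes were all called genes with a symbol, then the smallest p-values to 10 a direction, up to 5 a direction that crossed background between groups, the 5 with most probes, and up to 3 per list beside its genes, and of these the text names a part, since some are not reported here. The brightest tested probe stands for a gene. The 3 transcripts named by accession were picked after their values were seen. The transcripts and lists were chosen with earlier results of these data known. Alternatives changed background correction, normalization, filter, slide, replicate block, moderation, probes per gene and the arrays fitted. The normexp alternative used the median in place of the mean spot signal, which the files used here do not hold.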

Additional observations from a re-analysis of the deposited data

How the results depend on the processing

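In high fat diet minus control calls numbered 4, and 1 (shared with the 4) after quantile normalization, 2 (1 shared) with probes above background on all 9 arrays, 0 with no filter on dim probes (1252 at an unadjusted p under 0.05), 1 (0 shared) with slide as a fixed block and 27 (4 shared) with slide as a random block (correlation between arrays of a slide -0.168). In metformin minus control calls numbered 46, and 15 (8 shared) with no filter, 0 with slide as a fixed block (304 at an unadjusted p under 0.05), 952 (46 shared) with slide as a random block, 121 (32 shared) with trend and robust moderation and 93 (34 shared) with only the 6 arrays of the 2 groups. With normexp background correction 1 of the 4 and 15 of the 46 were among the 4 and 55 calls made. Leaving out 1 array gave 0 to 60 calls in the first comparison and 0 to 157 in the second. Metformin minus high fat diet had 0 calls in all 21 alternatives by limma, with 224 to 429 at an unadjusted p under 0.05. All the named genes kept their sign in the alternatives run for them: of 572, 411 and 614 gene values, 0 reversed in high fat diet minus control, metformin minus high fat diet and metformin minus control. This is not support for the differences. The genes were named mostly for small p-values in these same data, and several alternatives, such as moderation, leave a difference as it was. A second probe could have the other sign, as for Gm14198 above. Median differences moved from the reported values by less than the 0.08 SD of array medians. Replicate numbers did not pair the arrays: arrays of the same number had deviations that correlated between -0.094 and 0.128. With the replicate block the calls were 0 (1002 at an unadjusted p under 0.05) and 13, 12 of them among the 46, against controls, and 0 for metformin minus high fat diet. Signal near background limits the dim probes, for which a difference is only a bound, and 3 arrays a group limit the rest.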
